A study of Arabidopsis thaliana with 18 samples.

Results

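The response of nlp2 seedlings to nitrogen starvation was measured by RNA sequencing of Arabidopsis thaliana. The line nlp2-2 is a T-DNA insertion knock-out of NLP2, a gene for a NIN-like transcription factor of the RWP-RK family, and it stands for a single insertion allele. Of the 18 libraries of the series, the 6 used here are 3 of nlp2 seedlings starved of nitrogen for 3 days and 3 of nlp2 seedlings left untreated, chosen by their labels and paired by replicate number. All seedlings grew in liquid medium and were taken whole. Untreated seedlings are described as 10 days old and starved ones as 13 days old, so age and starvation changed together and cannot be told apart. The labels date the planting of replicates 1, 2 and 3 to day 1 of February, October and November, and the harvest to day 13 of the same month, for the untreated seedlings too, which does not match their stated age. Libraries are named below by these months. Wild type Col-4 under the same 2 conditions, with 3 libraries each, served to show where the mutant differed, and the nitrate-treated libraries entered the shared fit (the filter, the scaling and the estimates of month and spread) but no comparison.

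Plants that run out of nitrogen change both uptake and use. High-affinity carriers for nitrate, ammonium and urea are made, nitrogen is moved out of chloroplast proteins, nucleotides and membranes, and carbon that can no longer enter amino acids goes into starch and anthocyanins. NIN-like proteins carry the nitrate signal to its target genes, among them repressors of the LBD, HRS1 and BT families that hold back the starvation carriers while nitrate is present. NF-YA subunits of the CCAAT-binding factor are known targets of the microRNA miR169, which falls when nitrogen is short.

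Between 14684639 and 24499680 reads were counted in each of the 6 nlp2 libraries, so single genes with few reads carry a large counting error. Levels are counts per 1000000 on scaled library sizes (CPM), which allow a gene to be compared between libraries but not with another gene, since they are not divided by length. Changes are log2 fold changes of starved over untreated ± standard error. Genes count as called where edgeR's quasi-likelihood test, adjusted by Benjamini and Hochberg's method, gave a p below 0.05. NLP2 itself (AT4G35270, chromosome 4, 16777264 to 16782054) had 3.62, 9.39 and 8.48 CPM in the untreated nlp2 libraries of February, October and November, against a mean of 26.0 ± 2.66 CPM (SD, n = 3) in untreated wild type. Markers of both root and leaf cells were read in all 6 libraries, no seed storage gene passed the filter on low counts, and organelle gene models took 0.043% to 0.111% of the reads.

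A large share of the transcripts measured differed between starved and untreated seedlings. Of 21347 genes tested, 8142 were called (38.1%), 4066 higher (19%) and 4076 lower (19.1%). Most changes were small. Only 819 genes rose and 915 fell by more than 1 on the log2 scale, and 61 and 48 by more than 3, while the median over all genes tested was 0.025. The months gave the same direction for 98.7% of the called genes, a description, since these genes were chosen on the same libraries. The size differed, with a median size of 0.65 in February, 0.518 in October and 0.48 in November. The called genes were spread evenly over the chromosomes, from 37% of those tested on chromosome 1 to 39.9% on chromosome 4. The 3 starved libraries lay wholly above the 3 untreated ones for 4179 genes (19.6%) and wholly below for 4079 (19.1%).

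The 100 models with most reads in a library, chosen in each library by itself, took 17.6% to 21.3% of an untreated library and 13.2% to 15% of a starved one. As a description of sets chosen on these same libraries, genes called lower held 49.2%, 43.0% and 44.4% of the counted reads in the untreated libraries and 30.6%, 29.9% and 31.4% in the starved ones. Genes called higher went from 12.2%, 13.8% and 14.1% to 22.2%, 22.2% and 21.7%. In whole seedlings, fewer cells of a type and less RNA per cell cannot be told apart. Of the 11 root cell markers, 2 were called higher and 2 lower (median 0.09). Of the 8 tested leaf epidermis and shoot markers, 2 were higher (25%) and 4 lower (50%). Only 2 were lower without the untreated October library or any 1 starved library. The 2 called higher were KAT1 (0.81 ± 0.13, adjusted p = 0.00011) and STM, which maintains the shoot meristem (0.60 ± 0.12, adjusted p = 0.000604). Among those lower was TMM, a receptor-like protein of the stomatal lineage (-0.43 ± 0.11, adjusted p = 0.00371). The part of such shifts in the results below was not tested.

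Carriers and enzymes of nitrogen acquisition stood among the largest rises. NRT2.5 (AT1G12940, chromosome 1, 4416315 to 4418590), a high-affinity nitrate transporter of starved roots and leaves, had 0.48, 0.556 and 0.743 CPM in the untreated libraries and 71.0, 62.1 and 61.1 CPM in the starved ones, a 108-fold rise (6.76 ± 0.20, adjusted p = 4.99e-13). AMT1.5 (AT3G24290, chromosome 3, 8801400 to 8802890), an ammonium transporter, had 3 reads in the 3 untreated libraries together and 469 in the starved ones. Their ratio was 165, with a 95% exact interval of 56.1 to 803 that covers counting error only. Both genes were close to silent before starvation and clearly read afterwards in every library. GLN1.4, a cytosolic glutamine synthetase that takes up freed ammonium, went from 18.1, 10.6 and 15.9 CPM to 277, 232 and 236 CPM (4.07 ± 0.15, adjusted p = 2.84e-11).

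The other large rises came from pigment, sugar and stress genes. CYP716A2 (AT5G36140), a cytochrome P450 that acts on triterpenes, had the largest among the genes named by rule, from 0.213, 0.222 and 0.0874 CPM to 33.1, 26.1 and 22.2 CPM (7.26 ± 0.22, adjusted p = 4.99e-13). MYB90, an activator of anthocyanin synthesis, went from 0.32, 1.0 and 0.568 CPM to 42.1, 32.0 and 28.9 CPM (5.79 ± 0.43, adjusted p = 4.81e-07). Its paralogue MYB75 went from at most 0.131 CPM to 8.52, 3.52 and 3.34 CPM, so that the February library stood above the others. The remaining members of this group were ChlAKR, a plastid aldo-keto reductase (5.42), BIP3, a chaperone of the endoplasmic reticulum (5.11), GolS4, a galactinol synthase that opens the path to raffinose sugars (4.59), and SWEET14, a sugar exporter (4.54). BIP3 was the least even of them, with 16.3, 27.2 and 12.3 CPM under starvation.

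BT2, HRS1 and LBD39, all repressors linked to nitrate, were among the 10 largest falls. BT2 (AT3G48360, chromosome 3, 17907767 to 17910738), a BTB and TAZ domain protein that restrains nitrate uptake genes, went from 27.0, 19.5 and 25.9 CPM to 0.31, 0.602 and 0.578 CPM, a 48.0-fold fall (-5.59 ± 0.21, adjusted p = 5.36e-12). HRS1 (AT1G13300, chromosome 1, 4556878 to 4558793), a GARP-type repressor that joins nitrate and phosphate signals, went from 34.0, 26.9 and 33.1 CPM to 1.45, 1.57 and 1.35 CPM (-4.43 ± 0.21, adjusted p = 3.5e-10). LBD39, a LOB domain repressor of nitrogen and anthocyanin genes, went from 68.3, 54.5 and 62.4 CPM to 5.68, 6.71 and 7.97 CPM (-3.20 ± 0.14, adjusted p = 7.78e-11). In each of these the groups were far apart compared with the spread within them. LHB1B1, a light-harvesting protein of photosystem II, fell by 3.36 from uneven levels of 968, 242 and 652 CPM. TPX2, a thioredoxin-dependent peroxidase (-3.26), GLP9, a germin-like protein (-3.34), GLYI4, of the glyoxalase family (-3.24), GSTF14, a glutathione transferase (-3.03), SULTR3;5, a sulfate transporter (-2.98), and DIN10, of the raffinose synthase family (-2.80), made up the rest.

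**Figure D1:**
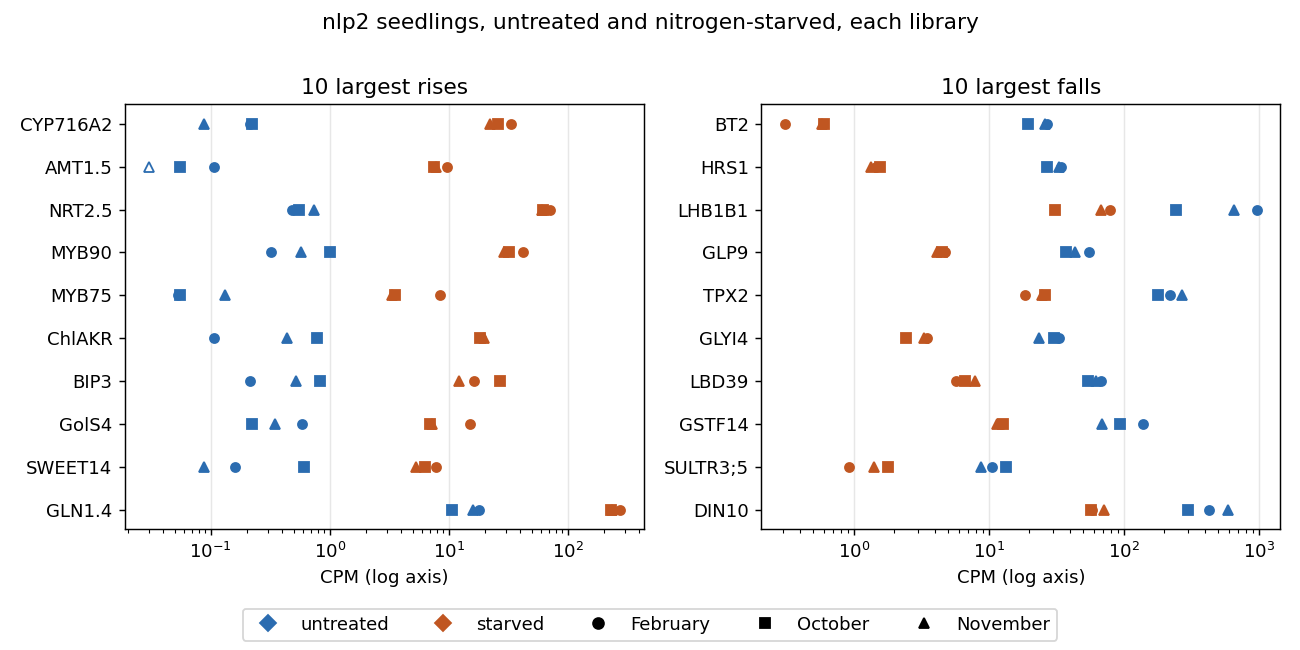
CPM on a log axis in each nlp2 library for the 10 called genes with the largest rises and the 10 with the largest falls, chosen by the rule for named genes. Blue marks are untreated and orange marks starved seedlings, the shape gives the planting month, and the open mark of AMT1.5 is a level of 0 drawn at the left edge. For all 20 genes the 3 starved libraries lie apart from the 3 untreated ones, as the rule required.

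The DNA before 5 called genes is shown because all 5 carry the short motif GAATC, which HRS1 and its relatives are known to bind. They were picked for it after the sequences had been seen. Other genes with large changes held 3 copies (MGD3), 2 (GLN1.4 and AT4G15680), 1 (BT2, CYP716A2 and AT4G15690) or 0 (MYB90). Each line gives the 250 bases before the annotated start, 5′ to 3′ on the gene's strand, from RefSeq (TAIR10.1). Capitals mark GAATC or its reverse complement GATTC, and the palindrome GNATATNC bound by phosphate regulators of the PHR1 type.
NRT2.5, chr1:4416065-4416314, forward strand: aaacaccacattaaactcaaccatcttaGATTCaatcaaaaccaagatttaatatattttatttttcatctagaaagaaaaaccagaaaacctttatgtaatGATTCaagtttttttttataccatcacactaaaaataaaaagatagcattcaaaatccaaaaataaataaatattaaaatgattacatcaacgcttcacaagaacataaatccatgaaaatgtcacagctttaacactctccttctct
AMT1.5, chr3:8802891-8803140, reverse strand: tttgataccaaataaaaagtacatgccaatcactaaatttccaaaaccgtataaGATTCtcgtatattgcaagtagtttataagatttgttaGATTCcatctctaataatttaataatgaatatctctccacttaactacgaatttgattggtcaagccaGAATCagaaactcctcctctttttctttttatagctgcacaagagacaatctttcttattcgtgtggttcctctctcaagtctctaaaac
NRT2.4, chr5:24444115-24444364, forward strand: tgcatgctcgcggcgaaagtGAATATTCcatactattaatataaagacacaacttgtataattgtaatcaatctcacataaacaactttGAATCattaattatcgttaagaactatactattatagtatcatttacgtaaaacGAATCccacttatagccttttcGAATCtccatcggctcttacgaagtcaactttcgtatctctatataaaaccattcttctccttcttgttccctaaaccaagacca
NLP3, chr4:17954460-17954709, forward strand: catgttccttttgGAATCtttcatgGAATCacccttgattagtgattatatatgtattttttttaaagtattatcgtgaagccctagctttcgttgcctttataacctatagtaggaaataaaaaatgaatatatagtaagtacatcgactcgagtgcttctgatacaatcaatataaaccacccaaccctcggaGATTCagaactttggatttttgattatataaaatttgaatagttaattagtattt
HRS1, chr1:4556628-4556877, forward strand: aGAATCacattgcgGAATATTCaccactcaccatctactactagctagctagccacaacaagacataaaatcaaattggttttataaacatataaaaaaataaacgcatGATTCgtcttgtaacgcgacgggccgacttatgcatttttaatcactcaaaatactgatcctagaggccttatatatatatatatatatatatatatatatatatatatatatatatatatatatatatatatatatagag
NRT2.5 held 2 copies of GAATC and AMT1.5, NRT2.4 and NLP3 held 3 each, while HRS1 itself held 2, and NRT2.4 and HRS1 each held 1 copy of GNATATNC. The motif is short and common, however. On either strand it stood in 39% of 21222 promoter windows, in 39.4% of those of genes called higher and in 39.5% of those called lower. Among the genes of ammonium, urea and amino acid import 11 of 17 windows held it, and among the NLP genes 6 of 9, but among nitrate transport genes 6 of 23 (26.1%) and among NF-YA genes 4 of 10. The G-box CACGTG stood in 7.18% of all windows, 8.86% of those called higher and 6.53% of those called lower, and MYB90 had 1. GNATATNC stood in 5.46%, 5.98% and 5.59%, in 9.49% of the 158 windows of genes that rose by more than 2 and in 11.8% of the 153 of genes that fell by more than 2. Such matches describe the letters of the window and say nothing of binding.

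Genes for the import of ammonium, urea and amino acids rose almost as a block. Of 17 tested, 13 were higher and 1 lower, with a median of 0.93. The urea carrier DUR3 went from 45.9, 45.9 and 67.2 CPM to 322, 275 and 314 CPM (2.54 ± 0.09, adjusted p = 3.14e-12), a 5.80-fold rise with the groups well apart. Among the ammonium transporters of the plasma membrane, AMT1.1 rose by 1.16, AMT1.3 by 0.93 and AMT1.2 by 0.55. The low-expressed AMT1.4 was just past the threshold (0.78 ± 0.30, adjusted p = 0.0489). Of the amino acid permeases AAP6 rose most (1.28 ± 0.08), followed by AAP2 (1.06) and AAP4 (0.95), whereas AAP3 fell (-0.36 ± 0.12, adjusted p = 0.022), a call lost without the untreated February or November or the starved February or October library. CAT1, a carrier of basic amino acids, rose by 1.65, and LHT1, which takes amino acids from soil, by 1.105. AAP1, BAT1 and GDU1 were not called (0.09, 0.10 and -0.17). Among 8 tested UMAMIT exporters of amino acids, UMAMIT36 (2.52 ± 0.29), UMAMIT14 (1.58 ± 0.24) and UMAMIT18 (1.122 ± 0.10) rose and UMAMIT29 fell (-0.72 ± 0.14).

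Nitrate carriers changed in both directions. Of 23 tested, 12 were higher and 5 lower (median 0.27). Besides NRT2.5, the root-surface transporter NRT2.4 went from 1.65, 1.78 and 1.22 CPM to 11.5, 13.5 and 12.7 CPM (3.03 ± 0.19, adjusted p = 2.24e-09). NRT1.7, which loads nitrate into the phloem of old leaves, went from 14.6, 20.3 and 24.5 CPM to 66.4, 68.7 and 54.7 CPM (1.67 ± 0.23, adjusted p = 0.00011). These 2 carriers had no overlap between the groups. NRT2.1, the main inducible uptake carrier, went from 80.4, 47.5 and 58.3 CPM to 108, 148 and 126 CPM (1.05 ± 0.30, adjusted p = 0.0172), and its partner protein NRT3.1 rose by 0.54. NRT2.2 had 0 reads before starvation and 59 after it, at least 20.8-fold higher against a floor of 3 reads over the group, but its sequence is nearly that of NRT2.1 and reads that fit both were discarded, so both levels are uncertain. NRT1.1, the dual-affinity carrier and nitrate sensor, rose from 182, 160 and 192 CPM to 257, 254 and 254 CPM (0.52 ± 0.08, adjusted p = 8.05e-05).

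CLC-A, the exchanger that fills the vacuole with nitrate, went from 149, 156 and 155 CPM to 48.6, 55.2 and 54.9 CPM (-1.54 ± 0.07, adjusted p = 7.46e-11). Its relative CLC-B went the other way, from 92.6, 101 and 103 CPM to 213, 209 and 207 CPM (1.08 ± 0.07, adjusted p = 3.68e-09). Each library thus separated the conditions for both exchangers, in opposite directions. The NRT2 genes NRT2.6 (-5.11 ± 0.55) and NRT2.3 (-2.998 ± 0.50) fell, at levels that never passed 3.14 CPM. The anion channel SLAH2 fell (-0.91 ± 0.17, adjusted p = 0.000324), as did NRT1.5, which loads nitrate into the xylem (-0.24 ± 0.09, adjusted p = 0.0408), while SLAH3 was level (0.01 ± 0.10, adjusted p = 0.973).

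Assimilation genes changed in both directions, with 7 of 19 higher and 8 lower (median -0.14). NIR1, nitrite reductase, went from 189, 181 and 215 CPM to 50.1, 52.5 and 53.8 CPM (-1.901 ± 0.09, adjusted p = 1.01e-10), and UPM1, which makes its sirohaem cofactor, fell by 0.77 on the log2 scale. GLN2, the plastid glutamine synthetase, fell (-1.17 ± 0.08), as did the ferredoxin-dependent glutamate synthase GLU1 (-0.66) and the NADH-dependent GLT1 (-0.61). The cytosolic glutamine synthetases rose instead. Besides GLN1.4, GLN1.1 went from 435, 331 and 502 CPM to 1440, 1350 and 1390 CPM (1.73 ± 0.10, adjusted p = 4.83e-10), and GLN1.2 and GLN1.3 rose by 0.62 and 0.58. GLU2, the other ferredoxin-dependent glutamate synthase, rose by 1.14 and GDH3, a glutamate dehydrogenase, by 2.098, while GDH1 and GDH2 fell (-0.35 and -0.44). Among the asparagine synthetases ASN2 fell (-1.21 ± 0.09) and ASN3 rose (0.63 ± 0.10). Nitrate reductase itself was not called, with NIA1 at -0.14 ± 0.08 (adjusted p = 0.184) and NIA2 at -0.06 ± 0.09 (adjusted p = 0.687).

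**Figure D2:**
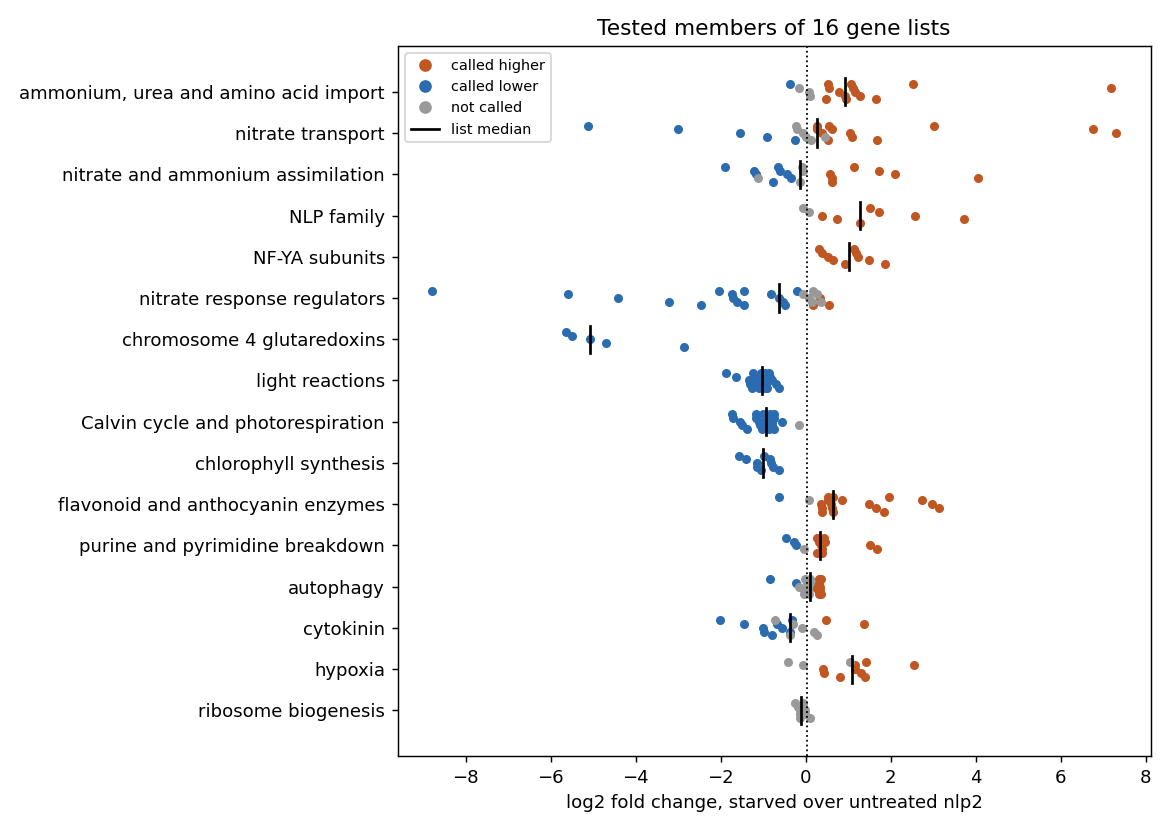
Fitted log2 fold change, starved over untreated nlp2, of each tested member of 16 gene lists. Orange points were called higher, blue called lower and grey not called, short black lines are list medians and the dotted line is the median of all genes tested (0.025). The 25 light-reaction genes lie between -1.86 and -0.63, and the 10 NF-YA genes between 0.33 and 1.87.

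Regulators of the nitrate response fell, 16 of 25 lower and 3 higher (median -0.62). All 3 LBD repressors on the list fell, LBD38 by 2.05 and LBD37 by 1.46 besides LBD39. Of the HRS1 relatives, which the annotation calls myb-like or homeodomain-like proteins, AT3G25790 had 165 reads before starvation and 0 after it, at least 52.1-fold lower, AT1G25550 went from 50.4, 43.2 and 50.9 CPM to 14.0, 15.2 and 14.9 CPM (-1.71 ± 0.09) and AT1G68670 fell by 1.45 on the log2 scale. AT4G37180 fell less (-0.49 ± 0.10) and AT1G49560 was not called (0.36 ± 0.17, adjusted p = 0.106). Of the BT genes, BT5 (-2.45), BT1 (-1.63) and BT4 (-0.80) fell with BT2, whereas BT3 was slightly higher (0.55 ± 0.19, adjusted p = 0.0312). Among kinases of nitrate signalling CIPK3 fell (-1.73 ± 0.09, adjusted p = 2.14e-10). CIPK23, which phosphorylates NRT1.1, was higher by 0.18 and CPK30, a calcium-dependent kinase, by 0.34. The transcription factor TGA1 fell (-0.62 ± 0.11) while TGA4 did not pass the test (-0.06 ± 0.10, adjusted p = 0.683). The 3 higher calls depended on single libraries, with 0 without the untreated October library, 1 without the starved February or October library and 5 without the starved November library.

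The 5 glutaredoxin genes in a row on chromosome 4, annotated as thioredoxin superfamily proteins and known to follow nitrate supply, fell together (median -5.07). AT4G15690 went from 10.0, 6.11 and 6.47 CPM to 0.155, 0.324 and 0.386 CPM (-4.70 ± 0.30, adjusted p = 2.18e-09). AT4G15680 went from 6.82, 5.56 and 4.41 CPM to 0, 0.185 and 0.129 CPM (-5.64 ± 0.44, adjusted p = 2.19e-08). The others fell too, AT4G15670 (-5.49), AT4G15660 (-5.07) and AT4G15700 (-2.86). In all 5 every starved library lay below every untreated one. The 5 genes are close in sequence and reads that matched several equally were discarded, so how the fall divides among them is uncertain.

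The NLP genes rose as a family with clear exceptions, 7 of 9 higher. NLP3 went from 1.97, 1.22 and 1.7 CPM to 22.2, 19.2 and 24.0 CPM (3.74 ± 0.12, adjusted p = 4.99e-13), a 13.3-fold rise. NLP8, known for nitrate-promoted germination, went from 4.32, 8.06 and 8.96 CPM to 42.2, 44.5 and 39.2 CPM (2.57 ± 0.16, adjusted p = 2.75e-09). The lowest starved library stood far above the highest untreated one for both. NLP9 rose by 1.73, NLP5 by 1.52, NLP4 by 1.28 and NLP1 by 0.39. NLP7, the main nitrate sensor, was at 57.7, 67.2 and 75.3 CPM before and 69.4, 68.0 and 73.1 CPM after (0.08 ± 0.07, adjusted p = 0.383), and NLP6 was at -0.05 ± 0.08 (adjusted p = 0.641).

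The residual NLP2 transcript of the mutant was also higher after starvation. It had 9.24, 14.5 and 11.8 CPM in the starved libraries (0.74 ± 0.20, adjusted p = 0.00944), and the groups overlapped although each month rose. The call was lost without the replicate block (0.73, adjusted p = 0.0582). In wild type NLP2 rose by 1.22 ± 0.17, and the difference between genotypes was not called. The counts do not show from which part of the disrupted gene these reads came.

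**Figure D3:**
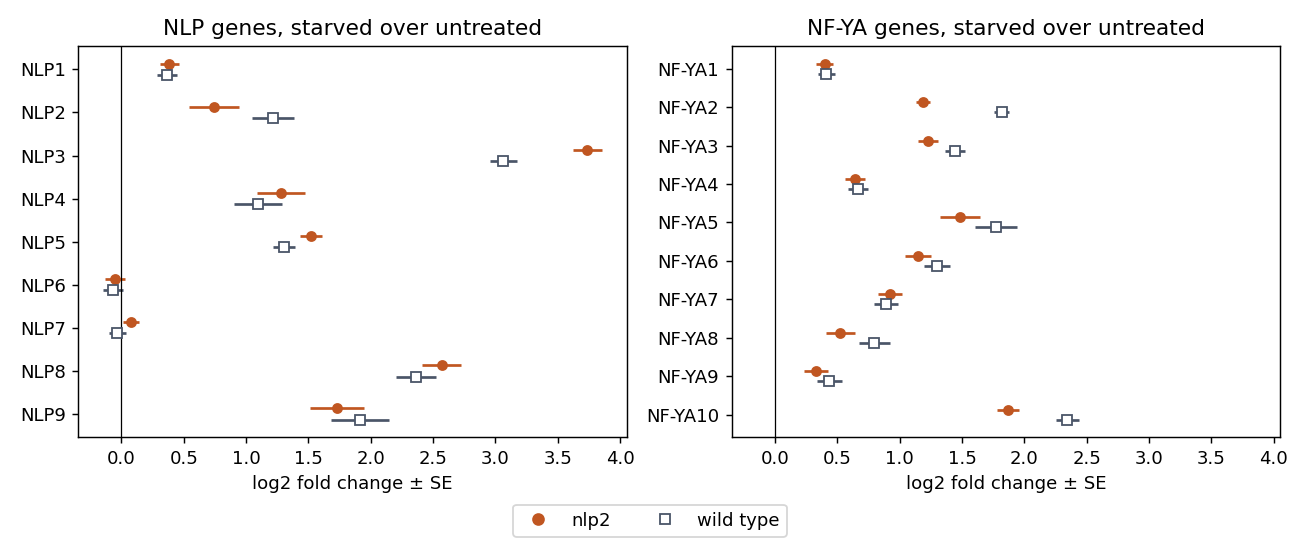
Log2 fold change, starved over untreated, with its standard error for the 9 NLP and the 10 NF-YA genes in nlp2 (filled circles) and wild type (open squares), each from 3 against 3 libraries. NLP6 and NLP7 lie near 0 in both genotypes, and NF-YA2 stands at 1.19 in nlp2 and 1.82 in wild type.

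All 10 NF-YA genes rose, by 0.33 to 1.87 (median 1.03). NF-YA10 (AT5G06510) went from 29.3, 32.6 and 29.1 CPM to 114, 113 and 108 CPM (1.87 ± 0.09, adjusted p = 7.78e-11). NF-YA2 (AT3G05690, chromosome 3, 1676504 to 1679061) went from 114, 108 and 110 CPM to 254, 252 and 247 CPM (1.19 ± 0.06, adjusted p = 1.43e-10). Its libraries varied little within each group. NF-YA5 rose by 1.48, NF-YA3 by 1.23 and NF-YA6 by 1.15, while NF-YA1 (0.40), NF-YA9 (0.33) and NF-YA8 (0.52) moved least. With single libraries left out 9 or 10 of them were called. NF-YA2 and NF-YA10, whose proteins are close paralogues, are shown with the 250 bases before their starts, since stretches of both windows are identical. Capitals mark the shared stretches of 12 or more bases, a search made after the sequences had been seen.
NF-YA2, chr3:1679062-1679311, reverse strand: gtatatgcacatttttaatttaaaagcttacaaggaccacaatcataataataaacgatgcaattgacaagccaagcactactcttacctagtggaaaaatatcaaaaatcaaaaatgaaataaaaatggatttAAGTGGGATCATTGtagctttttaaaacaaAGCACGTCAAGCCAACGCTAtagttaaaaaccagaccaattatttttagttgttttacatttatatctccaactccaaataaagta
NF-YA10, chr5:1984573-1984822, forward strand: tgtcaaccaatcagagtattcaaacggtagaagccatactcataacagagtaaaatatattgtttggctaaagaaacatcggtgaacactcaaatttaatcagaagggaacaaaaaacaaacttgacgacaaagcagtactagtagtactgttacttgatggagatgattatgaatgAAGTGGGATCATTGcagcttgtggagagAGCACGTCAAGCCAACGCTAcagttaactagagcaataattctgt
The longer stretch has 20 bases and begins 86 bases before the start of NF-YA2 and 45 before that of NF-YA10. The shorter one has 14 bases and begins 116 and 73 bases before the starts. Each stood in 2 of the 21222 windows, these 2.

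Genes of systemic nitrogen demand, by which starved roots signal to the shoot and back, were mostly higher, 5 of 7 tested against 1 lower. AT4G32950, a protein phosphatase 2C gene, went from 0.959, 1.06 and 0.786 CPM to 8.88, 8.0 and 6.75 CPM (3.08 ± 0.18, adjusted p = 1.14e-09). AT2G47880, a glutaredoxin gene, went from 7.89, 5.78 and 9.0 CPM to 39.1, 32.5 and 32.5 CPM (2.18 ± 0.17, adjusted p = 4.78e-08). Both were apart in every library. AT3G62960 rose by 1.75 and its neighbour AT3G62950 fell (-3.45 ± 0.56), 2 genes of the thioredoxin superfamily with opposite directions. The receptor gene CEPR1 was only just past the threshold (0.34 ± 0.13, adjusted p = 0.0482), and 3 members were called higher without the untreated November library or without the starved February or October library. Of 11 tested genes of root foraging, 3 were higher and 1 lower, and the 36.4% called were close to the 38.1% over all genes. TAR2, an enzyme of auxin synthesis, fell (-0.90 ± 0.10), and ANR1, a MADS-box factor of lateral roots, rose (1.31 ± 0.18).

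Photosynthesis genes fell across the board. All 25 light-reaction genes were lower (median -1.02), and they took 6.83%, 4.38% and 5.16% of the reads of the untreated libraries and 2.95%, 2.41% and 3.03% of the starved ones. The untreated months were further apart than the starved ones. LHCB1.3, an antenna protein of photosystem II, went from 11400, 5690 and 7070 CPM to 2460, 1680 and 2410 CPM (-1.86 ± 0.19, adjusted p = 3.7e-06), though LHCB1 copies share reads that were discarded. PETE2, plastocyanin, went from 3470, 1990 and 2510 CPM to 1130, 890 and 1150 CPM (-1.32 ± 0.11, adjusted p = 3.94e-08). PSAG, of photosystem I, fell by 1.25 and LHCB3 by 1.34. LHCB1.2 moved least (-0.63 ± 0.19, adjusted p = 0.0153).

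Of 24 tested Calvin cycle and photorespiration genes, 23 were lower (median -0.92). RBCS1B, for a small subunit of Rubisco, went from 2360, 2070 and 2210 CPM to 665, 629 and 749 CPM (-1.70 ± 0.07, adjusted p = 3.96e-11), and the other small-subunit genes RBCS2B (-1.72), RBCS3B (-1.497) and RBCS1A (-1.37) fell, with some uncertainty from their close similarity. The months lay close to each other within each condition. GAPA-2 (-1.55) and GAPB (-1.16), subunits of the plastid glyceraldehyde phosphate dehydrogenase, fell more than RCA, the activase of Rubisco (-0.79). GLDP1, of the glycine decarboxylase, was the gene not called (-0.17 ± 0.11, adjusted p = 0.254). All 10 genes of chlorophyll synthesis fell (median -1.01), among them PORB, protochlorophyllide reductase, from 282, 207 and 279 CPM to 92.4, 72.7 and 92.9 CPM (-1.57 ± 0.11), and CHLI1, of magnesium chelatase (-1.41 ± 0.10).

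**Figure D4:**
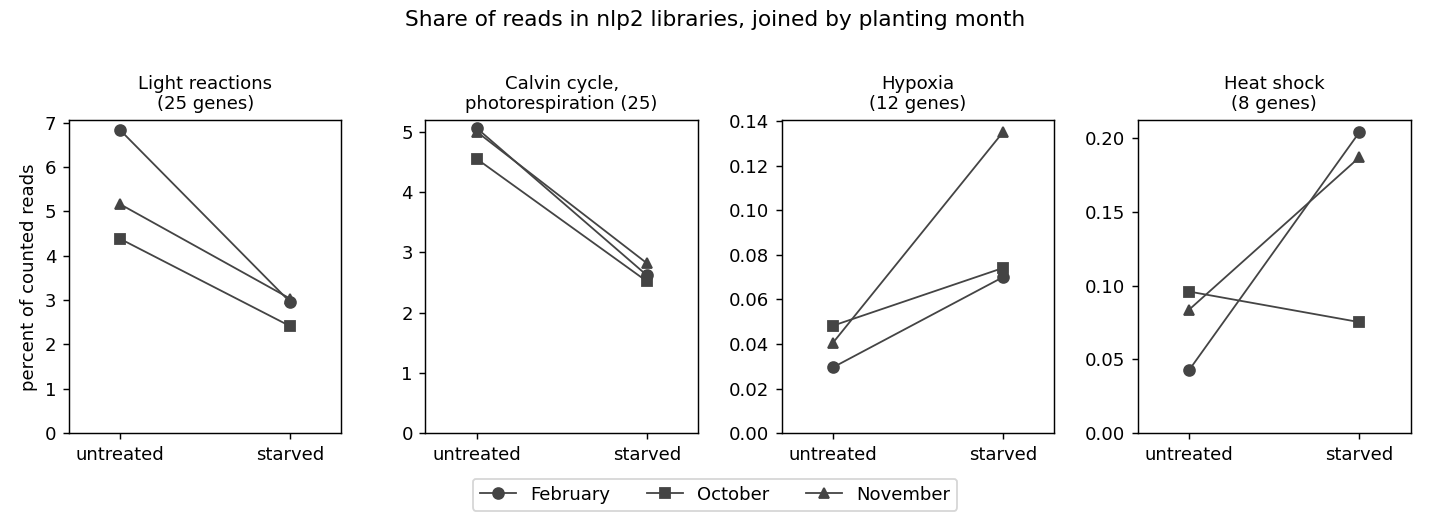
Percent of counted reads that fell on the genes of 4 lists in each nlp2 library, with lines joining the libraries of a planting month. The axes start at 0 and differ between panels. Light-reaction and Calvin cycle genes lose reads in all 3 months, hypoxia genes gain most in November, and heat-shock genes move in opposite directions between October and the other months.

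Senescence and recycling genes rose in part. Of 16 tested genes of senescence and chlorophyll breakdown, 7 were higher and 3 lower (median 0.11). NAP, a NAC factor of leaf senescence, went from 15.5, 14.0 and 27.0 CPM to 71.5, 35.9 and 51.2 CPM (1.49 ± 0.21, adjusted p = 7.4e-05). NYE1 and NYE2, which start chlorophyll breakdown, rose by 0.87 and 1.33, and SAG13, a senescence-associated dehydrogenase, by 2.65. SEN1 fell (-2.16 ± 0.37), as did WRKY53, an early senescence factor (-1.18 ± 0.22), and SAG12, the marker of late senescence, had at most 0.258 CPM. Of 21 autophagy genes 9 were higher, by at most 0.37, and 2 lower, ATG8E (-0.83 ± 0.09) and ATG5 (-0.22 ± 0.08), with 1 lower without the untreated November or any 1 starved library. The members called higher included ATG8G (0.37), ATG7 (0.34) and ATG9 (0.21).

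Nucleotide breakdown, which frees nitrogen from purines and pyrimidines, rose more evenly, 10 of 14 higher and 3 lower (median 0.34), with 1 lower when some single libraries were left out. ALN, allantoinase, went from 48.7, 35.5 and 46.7 CPM to 130, 122 and 123 CPM (1.53 ± 0.10, adjusted p = 2.04e-09). RNS1, an extracellular ribonuclease, went from 3.14, 5.34 and 6.07 CPM to 14.7, 17.2 and 14.7 CPM (1.67 ± 0.30, adjusted p = 0.000739). The groups did not overlap for either. XDH1, xanthine dehydrogenase, rose by 0.45 and its neighbour XDH2 fell (-0.46). Among 16 genes of amino acid breakdown 7 were higher and 4 lower, with PPDK, which feeds pyruvate into glutamine for export from old leaves (1.19 ± 0.11), and BCAT2, of branched-chain amino acids (1.49 ± 0.16), the largest. Only 4 were called higher without the replicate block, in the 6 nlp2 libraries alone, or without the untreated October or starved February library.

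Flavonoid and anthocyanin enzymes rose, 17 of 19 tested (median 0.64). The late enzymes that lead to anthocyanins rose most. DFR, dihydroflavonol reductase, went from 0.107, 0.723 and 0.437 CPM to 5.16, 1.94 and 3.53 CPM (2.99 ± 0.44, adjusted p = 4.99e-05). UGT79B1, which adds xylose to anthocyanins, rose by 3.13, GSTF12, which carries them to the vacuole, by 2.74 and LDOX, anthocyanidin synthase, by 1.97. None of these 4 passed 5.16 CPM in any library. Early enzymes rose less, as CHS, chalcone synthase, from 189, 316 and 336 CPM to 385, 396 and 431 CPM (0.54 ± 0.17, adjusted p = 0.0239) and PAL1, the entry enzyme of phenylpropanoids (0.86 ± 0.12). PAL2 was not called (0.08 ± 0.09) and SCPL10 was lower (-0.63 ± 0.14). Of 10 tested regulators only MYB75, MYB90 and MYB11 were higher (30%, against 19% over all genes). EGL3 and TTG1, partners of the MYB factors, were at -0.05 ± 0.18 and 0.21 ± 0.09 and the repressor MYBL2 at -1.06 ± 0.39 (adjusted p = 0.0512), none called.

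Carbon storage and sugar signalling genes divided as well. Of 26 starch and sugar genes 10 were higher and 7 lower (median 0.13). GBSS1, the starch synthase of amylose, went from 23.4, 25.7 and 21.7 CPM to 104, 102 and 98.6 CPM (2.101 ± 0.12, adjusted p = 1.82e-09). GPT2, which imports glucose phosphate into plastids, went from 7.3, 17.1 and 10.7 CPM to 44.9, 67.1 and 44.6 CPM (2.17 ± 0.30, adjusted p = 0.000146). Both rose in every month. Of the large subunits of ADP-glucose pyrophosphorylase, which commits carbon to starch, APL3 rose (1.22 ± 0.08) while APL1 fell (-0.92 ± 0.12). The phloem loader SUC2 rose (0.59 ± 0.10) and the sucrose exporters SWEET11 and SWEET12 fell (-0.50 and -0.61). Of 9 tested energy regulators 5 were lower and 2 higher. TPS8, TPS9, TPS10 and TPS11, of the trehalose phosphate synthase family, fell by 0.87 to 1.62, while TPS5 (1.02 ± 0.07) and TPS1 (0.62 ± 0.08) rose. The bZIP genes BZIP1, BZIP2, BZIP11, BZIP44 and BZIP53 are listed at 0 in all 18 libraries together with an adjacent model of equal length, so they were not measured.

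Genes that supply reductant and carbon skeletons for nitrate assimilation changed in both directions. Of 13 pentose phosphate and reductant genes 7 were lower and 2 higher (median -0.45), with 0 to 2 higher over the alternatives. G6PD1, a plastid glucose phosphate dehydrogenase, went from 142, 130 and 127 CPM to 60.1, 61.6 and 65.0 CPM (-1.099 ± 0.08, adjusted p = 6.06e-09). The leaf ferredoxin FD2 (-1.28 ± 0.09) and the leaf ferredoxin reductases LFNR2 (-1.31) and LFNR1 (-0.99) fell, while the root forms RFNR1 and RFNR2 were not called (-0.02 and 0.18). Of 14 organic acid genes 4 were higher and 4 lower (28.6% each), against 19% and 19.1% over all genes. NADP-ME1, a cytosolic malic enzyme, rose from 0.426, 0.889 and 0.961 CPM to 6.09, 3.84 and 5.14 CPM (2.69 ± 0.26). PPC3, a PEP carboxylase, rose (1.01 ± 0.12), the kinase PPCK1 fell (-0.91 ± 0.08), and so did TDT, the malate carrier of the vacuole (-0.65 ± 0.10).

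Membrane lipid genes rose, 9 of 16 tested against 4 lower (median 0.40). MGD3, a galactolipid synthase otherwise known from phosphate starvation, went from 0.586, 0.834 and 0.786 CPM to 7.64, 8.24 and 8.35 CPM (3.46 ± 0.18, adjusted p = 1.85e-10). NPC4, a phospholipase C, went from 3.36, 3.17 and 3.45 CPM to 25.2, 15.1 and 14.3 CPM (2.42 ± 0.15, adjusted p = 1.49e-09). For both, each starved library was several times any untreated one. MGD2 rose by 1.35, and PES2, which stores phytol and fatty acids as esters, by 0.82. The housekeeping synthase MGD1 fell (-0.45), as did SQD1, another lipid gene of the list (-0.39). Phosphate starvation genes did not follow as a list (median 0.01). Of 13 tested, 3 were higher (23.1%), or 5 in the fit of 12 libraries, and 4 lower (30.8%). Over all genes 19% were higher and 19.1% lower. SPX1, a sensitive phosphate marker, was not called (0.41 ± 0.19, adjusted p = 0.0947), PHO1, which exports phosphate to the xylem, fell (-0.80 ± 0.10) and PHO2, which restrains phosphate uptake, rose (0.82 ± 0.09).

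Sulfate genes were higher in 7 of 16 and lower in 2 (median 0.45). The sulfur-deficiency markers LSU1 (1.898 ± 0.40), SDI1 (1.85 ± 0.30) and LSU2 (1.16 ± 0.39) rose with the reductases APR1 and APR3 (0.71 and 0.84), while the root uptake carrier SULTR1.2 fell (-1.37 ± 0.16, adjusted p = 1.29e-05). Of 14 tested iron genes 3 were lower (21.4%) and 0 higher, against 19.1% lower and 19% higher over all genes. Aliphatic glucosinolate genes gave 2 of 14 higher (14.3%), MYB29 (0.96 ± 0.19) and CYP79F1 (1.76 ± 0.27). Another 4 were lower (28.6%), of which MAM3, an elongation enzyme, moved most (-0.78 ± 0.11).

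Cytokinin genes were lower, 9 of 17 against 2 higher (median -0.37). Genes of synthesis fell while the oxidases CKX5 and CKX6 rose, with 1 of them called when any nlp2 library but the untreated November one was left out. CYP735A2, which makes the trans-zeatin form sent from root to shoot, went from 6.5, 5.45 and 7.78 CPM to 1.65, 2.92 and 2.83 CPM (-1.45 ± 0.20, adjusted p = 2.26e-05), and CYP735A1 fell by 2.00 on the log2 scale. IPT3, the nitrate-linked first enzyme of synthesis, went from 13.7, 16.2 and 16.2 CPM to 5.89, 9.81 and 7.97 CPM (-0.97 ± 0.13, adjusted p = 1.83e-05). CKX5, a cytokinin oxidase, rose from 3.89, 6.11 and 5.81 CPM to 14.9, 11.6 and 14.3 CPM (1.37 ± 0.20, adjusted p = 4.57e-05). The groups were apart for all of these. Of the type-A response regulators ARR16 (-0.78), ARR9 (-0.66), ARR8 (-0.55), ARR6 (-0.37) and ARR4 (-0.32) fell and ARR7 and ARR15 were not called.

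Of 17 cell cycle genes 6 were lower (35.3%) and 2 higher (11.8%), against 19.1% and 19% over all genes. The mitotic genes CYCB1.2 (-0.68 ± 0.11) and KNOLLE (-0.68 ± 0.11) fell, and the D-type cyclins CYCD1.1 (0.38 ± 0.08) and CYCD3.1 (0.35 ± 0.08) rose. None of the 10 ribosome biogenesis factors was called by edgeR, DESeq2 or limma, and 0 had an unadjusted p below 0.05. Their changes ran from -0.25 to 0.10.

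Stress and hormone lists showed more spread between libraries. Hypoxia genes were higher in 9 of 12, and the starved November library was above the others for several. PDC1, pyruvate decarboxylase, went from 11.2, 21.4 and 20.8 CPM to 69.1, 77.2 and 180 CPM (2.56 ± 0.32, adjusted p = 8.16e-05), and ADH1, alcohol dehydrogenase, from 72.8, 197 and 129 CPM to 220, 222 and 468 CPM (1.15 ± 0.36, adjusted p = 0.028). Without the starved November library 5 members were called. The part of oxygen supply in these liquid cultures was not tested. Jasmonate genes were higher in 7 of 20 (35%), against 19% over all genes. The count was 11 when only the 12 starved and untreated libraries were fitted. VSP2, a storage protein of jasmonate-treated leaves, rose (1.85 ± 0.38, adjusted p = 0.00285). Of 7 tested salicylic acid defence genes 3 were higher (42.9%, against 19% over all genes), PR2 among them (2.28 ± 0.32), and PR1 was near 0.

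Heat-shock genes showed how far libraries of a group could differ. HSP70 had 230, 473 and 424 CPM in the untreated libraries and 1200, 323 and 1090 CPM in the starved ones, low in October only. Of the 8 genes 0 were called by edgeR, with 0 at an unadjusted p below 0.05, and 0 by DESeq2 and limma-voom. In edgeR fits of the 6 nlp2 libraries alone or of the 12 starved and untreated libraries 1 was called lower. Of 11 clock genes 2 were higher, CCA1 (0.67 ± 0.14) and LHY (0.94 ± 0.19), and 2 lower, PRR5 (-0.71 ± 0.23) and LUX (-0.42 ± 0.14), shares close to the 19% and 19.1% over all genes. The 2 lower calls were lost without the untreated November library or any starved library, and no source used here states the hour of harvest. Of 7 root triterpene genes 3 were higher and 1 lower. Those higher were THAS1, THAH (1.204 ± 0.27) and THAD (1.31 ± 0.30) of the thalianol cluster, with THAS1 going from 32.9, 43.2 and 57.1 CPM to 238, 155 and 146 CPM (2.00 ± 0.33, adjusted p = 0.000628), and PEN1, an oxidosqualene cyclase, fell (-1.84 ± 0.31).

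The response of nlp2 was close to that of wild type gene by gene. In wild type 7794 genes were called (36.5%). Both genotypes shared 3015 higher and 3373 lower calls, which is 78.5% of the nlp2 calls and 82% of the wild-type calls, and 1 gene was called in opposite directions. That gene, AT4G06477, is an uncharacterized protein gene at -1.24 in nlp2 and 1.23 in wild type, with overlapping libraries and a difference that was not called (adjusted p = 0.412). Across genes tested, the log2 fold changes of the genotypes correlated with Pearson's r = 0.901, a description, since genes are not independent replicates. The 2 comparisons share no library but do share the estimates of month and spread.

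Tested directly, the difference between the genotypes was called for 1 gene of 21347 (0.00468%). An unadjusted p below 0.05 was found for 620, fewer than this threshold gives on average when no gene differs. The gene called was NF-YA2. Its response was smaller in nlp2 (1.19 ± 0.06) than in wild type (1.82 ± 0.06), a difference of -0.63 ± 0.08 (adjusted p = 0.012). Untreated nlp2 had 110 ± 2.84 CPM and untreated wild type 54.7 ± 2.8 CPM, whereas starved nlp2 had 251 ± 3.79 and starved wild type 193 ± 2.86 CPM (SD, n = 3 each). So the higher level of nlp2 was present before starvation. Over all alternatives the difference ran from -0.66 to -0.61, with adjusted p from 2.18e-09 (DESeq2) to 0.137. The call was lost in edgeR without the replicate block, with the block set within each genotype and in the 12 libraries alone, and without the untreated November, starved February or starved November library of nlp2, untreated replicate 2 or any starved replicate of wild type. NF-YA10 stood at 1.87 against 2.34 without being called. Larger changes in nlp2 than in wild type were seen for NRT2.5 (6.76 and 5.86), GLN1.4 (4.07 and 3.18), HRS1 (-4.43 and -3.31) and AT2G47880 (2.18 and 1.03). Smaller ones were seen for CYP716A2 (7.26 and 7.76), SWEET14 (4.54 and 5.33) and the methyltransferase gene AT5G37990 (2.73 and 3.65). None of these differences was called (smallest adjusted p = 0.235). Besides, 1753 genes were called in nlp2 and not in wild type and 1405 the other way round, while NF-YA2 was called in both. A difference that missed the threshold does not show that the genotypes responded alike.

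**Figure D5:**
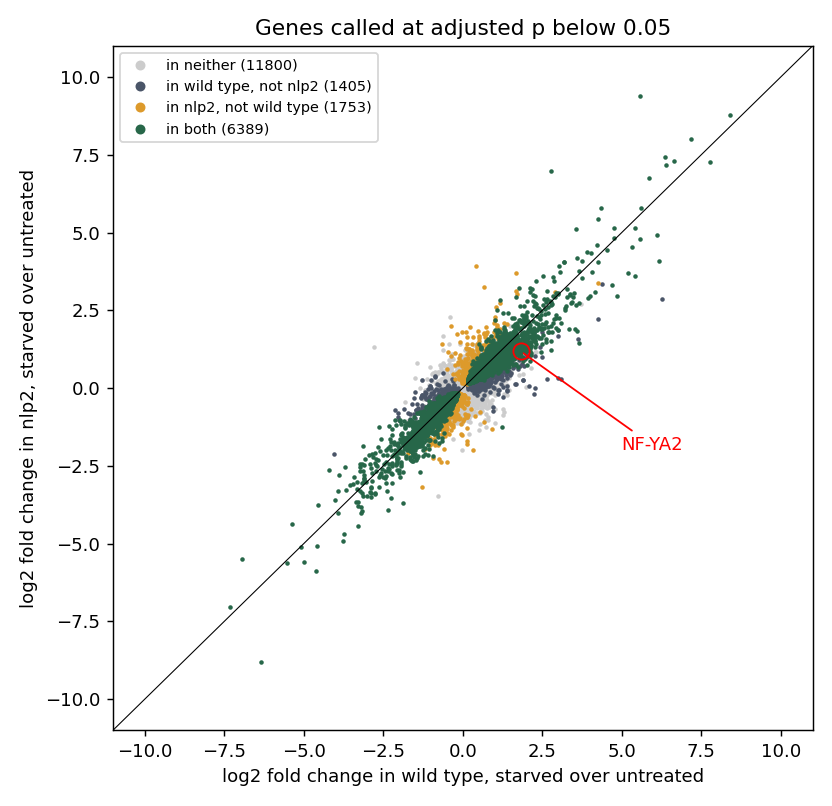
Log2 fold change, starved over untreated, in nlp2 (vertical axis) and wild type (horizontal axis) for the 21347 genes tested, coloured by the genotype in which a gene was called. The line marks equal change, and NF-YA2, the gene called for the difference, is circled. Most called genes lie along the line, with r = 0.901 across genes.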

How the data were processed

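Poly(A) RNA of whole seedlings was sequenced as stranded single-end libraries, per the labels' protocols. The deposited values are raw counts of reads per gene model, made by the authors with sam2pkm, which dropped reads that hit several places equally well, per the file headers, beside each model's length in bases. Bowtie2 and TAIR10 are named in the submitters' processing notes, while no source used here states versions, annotation or the use of strand, so overlapping genes on opposite strands may share reads. Nothing was normalised by the authors.

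From these counts, 21347 of 33602 models passed edgeR's filter (count minimum 10, total minimum 15). All 18 libraries were fitted with TMM scaling, 6 group means and the replicate number as a block, by the robust quasi-likelihood F-test (edgeR 4.0.16, R 4.3.3), with Benjamini-Hochberg adjustment over all genes tested and 10 residual degrees of freedom. Standard errors were derived from the F statistic. The labels give a shared planting month for each number in nlp2. Same-numbered nlp2 libraries deviated together (correlations 0.286, 0.286 and 0.169), and differently numbered ones gave -0.29 to 0.0248. No label says whether libraries of a group came from separate cultures beyond these dates, so p-values measure the spread between these samples. For 5 wild-type libraries no date is given, so their block rests on the number alone. Intervals and floors (3 reads over a group, 95% exact intervals) cover counting error only.

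Alternatives were no block, a block within each genotype, fits of 6 or 12 libraries, DESeq2 1.42.0, limma-voom (limma 3.58.1), other scalings and filters, and leaving out each library. Names and promoters came from RefSeq (TAIR10.1), which matched 21223 of the genes tested. Of 591 list entries in 40 lists, 553 carried the listed symbol, 8 another and 30 none. Named genes were the 10 largest called changes in each direction with a symbol, at least 5 CPM, no overlap and 1 sign in the months, up to 4 called members with the smallest p of each list, small families in full, and up to 4 genes with the smallest p in each direction. Further list members were named as examples after their values were seen. The lists and rules were chosen with earlier results of these data known.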

Additional observations from a re-analysis of the deposited data

Results flagged for a closer look

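NF-YA2, a CCAAT-binding factor subunit, was the gene whose response to starvation differed between the genotypes by a direct test. The log2 response in nlp2 minus that in wild type was -0.63 (-0.6331 before rounding, SE 0.08, edgeR adjusted p = 0.012). Within nlp2 alone the rise was 1.16 in February, 1.22 in October and 1.17 in November. The difference from wild type was not taken by month, so these values do not bear on it. With 3 libraries in each of 4 groups, the call was lost in several alternatives although the value moved little. The cause was not tested.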

How the results depend on the processing

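The number of genes called in nlp2, 8142, became 6441 without the replicate block, 7609 with the block within each genotype, 6614 in the 6 nlp2 libraries alone and 8578 in the 12 starved and untreated libraries. DESeq2 called 7676, limma-voom 8155, and other scalings and filters 7732 to 8152. Leaving out single libraries gave 6212 to 7572 in nlp2 and 6234 to 6529 in wild type, from 7794. No gene called in both the main and an alternative fit changed sign. The count for the difference between genotypes, 1, was 0 without the replicate block, 0 with the block within each genotype, 0 in the 12 libraries and 17 with DESeq2 (5 higher, 12 lower), and 0 to 3 when single libraries were left out. The difference for NF-YA2 was -0.63 in each of these block settings and -0.66 to -0.61 without single libraries. For the uncalled NLP6, log2 fold change in nlp2 was -0.05 and ran from -0.1249 to 0.04576 without single libraries, positive without the starved October library. Of 163 called genes named by rule, 11 missed the threshold in some alternative. Those lost without the block were NLP2, ATG8A and CASP1. Further called genes named as examples, some of them near the threshold, were not part of this count. Depth limits genes with few reads. The causes were not tested.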

Other observations

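Grouped by gene symbol, a grouping made after the values were seen, several families leaned one way in nlp2. Of 60 tested NAC transcription factors 26 were called higher and 3 lower, and of 54 UGT glycosyltransferases 26 were higher and 4 lower. Of 27 tau-class glutathione transferases (GSTU) 15 were higher and 2 lower. Of 24 genes with ARF symbols 11 were higher and 0 lower by edgeR. These symbols mark auxin response factors but also other genes, such as ARFD1B. The XTH family, which remodels cell wall xyloglucan, went the other way with 1 of 26 higher and 12 lower. So did genes with RPL and RPS symbols, used mostly for ribosomal proteins. Of 21 RPL genes 0 were higher and 19 lower, and of 24 RPS genes 2 were higher and 15 lower.

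By annotated product, histone superfamily genes were lower in 13 of 29 and higher in 0, and microtubule motor proteins lower in 7 of 15 and higher in 0. MATE efflux carriers were higher in 20 of 46 and lower in 4, and dirigent-like proteins, of lignan and lignin formation, higher in 12 of 19 and lower in 3. Over all genes tested 19% were higher and 19.1% lower. No test was made for these groups.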
